A study of Mus musculus with 16 samples.

Results

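The genes described here are the interleukin 1 (IL-1) family and its receptors, 9 genes chosen by name from the 32078 of the deposited expression table: the ligands Il1a, Il1b, Il33 and Il18, the receptor antagonist Il1rn, the decoy receptor Il1r2, the signalling receptor Il1r1, the shared co-receptor Il1rap and the IL-33 receptor Il1rl1. The 9 were chosen with earlier results of these data known, and all passed the filter on low values. They were measured by RNA sequencing of whole skin of mice aged 7 weeks, in 16 libraries. The titles name SDS with Topsym at days 0, 1, 3 and 5 and SDS without Topsym at the same days, which makes 8 groups of 2 libraries. SDS is the skin-irritating detergent sodium dodecyl sulfate, and Topsym is sold as a topical preparation of the potent glucocorticoid fluocinonide. No strain, sex or genotype is stated in the labels. They state 4 days of topical treatment, while the titles run to day 5, so when each agent was applied relative to a day cannot be worked out here. What the day 0 libraries labelled with Topsym had received is likewise not stated. No group lacks SDS in its title, so changes from day 0 mix SDS with time and with the animals sampled, which cannot be told apart. The design text of the series describes fatty acids and sorted hair follicle stem cells and does not describe these libraries.

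IL-1 alpha (Il1a) and IL-1 beta (Il1b) are alarm cytokines that bind the same receptor, encoded by Il1r1. The bound receptor recruits the co-receptor encoded by Il1rap and signals through the adaptor MyD88 to the transcription factor NF-kappaB. This step has brakes: the antagonist (Il1rn) occupies the receptor without recruiting the co-receptor, and the decoy (Il1r2) binds the ligand but cannot signal. IL-33 uses its own receptor (ST2, encoded by Il1rl1) with the same co-receptor, and IL-18 uses a separate receptor pair. Keratinocytes of the epidermis store IL-1 alpha and IL-33, which are released when the cells are damaged, whereas IL-1 beta and IL-18 are made as precursors that caspase-1 cuts. The levels below are of messenger RNA and say nothing of released or cut protein.

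The libraries held 15199656 to 32066246 reads recovered from the deposited values. The 4 day 5 libraries of both arms were among the least deep and had the fewest detected genes, 19885 to 20774, against 22875 to 23740 in the others. Values are normalised reads, that is reads per gene divided by a size factor of the library. Each of the 9 genes had from 22 (Il1rl1) to 6937 (Il1r2) recovered reads in a library. Defining transcripts of keratinocytes, fibroblasts, endothelial cells, mast cells and macrophages were present in every group, as were those of skeletal muscle. The summed muscle markers differed between the arms at every day, and not in one direction. At day 0 they were 110796 and 108795 with Topsym and 302380 and 299995 with SDS alone. At day 1 they were 346133 and 352220, against 233526 and 224812 with SDS alone. At day 3 they were 143047 and 147316 with Topsym, against 308566 and 304688, and at day 5 93384 and 95791, against 56412 and 59940. Recovered reads of the 2 libraries of a group differed by more than counting noise (chi-square per degree of freedom 3.13 to 7.00), so no pair held the same counts under 2 names. This statistic cannot tell whether a pair came from a single library sequenced again, since reads standing for the same fragment also raise it. Of recovered counts from 1 to 20, 69.9% to 76.8% were even, so many fragments may stand as 2 reads, and with counts halved the same statistic was 1.56 to 3.50. The labels do not say whether each came from its own animal, and each p-value therefore reflects library-to-library spread that may be technical. In bulk skin, fewer cells of a type and less RNA per cell cannot be told apart.

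In the mouse genome (GRCm38, GENCODE M21 annotation), 5 of the genes lie in 2 neighbourhoods. Il1r2 (chr1:40074079-40125231), Il1r1 (chr1:40225080-40317257) and Il1rl1 (chr1:40429570-40465415) follow each other on the plus strand of chromosome 1. Il1a (chr2:129299610-129309972) and Il1b (chr2:129364570-129371139) are neighbours on the minus strand of chromosome 2, and Il1rn (chr2:24336853-24351494) lies on its plus strand far from them. Il1rap (chr16:26581704-26730117), Il33 (chr19:29925114-29960718) and Il18 (chr9:50554827-50581840) lie alone. On the opposite strand, exons of Gm14023 share 222 bases with Il1a, those of Il1bos 25 bases with Il1b and those of Gm20319 552 bases with Il1rap. The sources used here do not say whether reads were counted by strand. The values listed for these antisense genes were 15.5 to 40.3 for Gm14023, 12.4 to 61.2 for Il1bos and 0 to 3.09 for Gm20319. In the library where it was largest beside its partner, Il1bos came to 40% of Il1b, Gm14023 to 8.43% of Il1a and Gm20319 to 0.631% of Il1rap.

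The promoters of Il1a and Il1b, which feed the same receptor, and those of Il1rn and Il33 are shown because they hold TATAAA shortly before the start or the AP-1 letters TGANTCA, among motifs searched on both strands of all 14 starts of the 9 genes. They are RefSeq sequences of GRCm38.p6 of 300 bases, most of them ahead of the start, on the gene's strand, and a match of letters is a description and not a site in use. Capitals mark TATAAA, the core of a TATA box, in Il1a, Il1b and Il33, and TGANTCA, the letters bound by AP-1 factors, in Il1a and Il1rn. In bases from the start, with a minus sign ahead of it, TATAAA stands at -32 in Il1a, -31 in Il1b and -29 in Il33, and TGANTCA at -12 in Il1a and -141 in Il1rn.
Il1a, chr2:129309923-129310222, minus strand: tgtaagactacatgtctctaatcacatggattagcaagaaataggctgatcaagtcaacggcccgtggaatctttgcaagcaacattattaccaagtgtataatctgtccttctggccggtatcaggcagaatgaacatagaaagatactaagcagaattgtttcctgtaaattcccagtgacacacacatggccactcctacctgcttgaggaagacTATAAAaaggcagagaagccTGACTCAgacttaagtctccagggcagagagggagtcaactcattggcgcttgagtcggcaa
Il1b, chr2:129371090-129371389, minus strand: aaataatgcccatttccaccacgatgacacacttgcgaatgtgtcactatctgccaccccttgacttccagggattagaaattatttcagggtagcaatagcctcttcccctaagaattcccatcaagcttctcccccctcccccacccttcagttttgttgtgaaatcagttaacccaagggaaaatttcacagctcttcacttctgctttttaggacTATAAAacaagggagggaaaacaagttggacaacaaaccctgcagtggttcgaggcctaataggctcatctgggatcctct
Il1rn, chr2:24336610-24336909, plus strand: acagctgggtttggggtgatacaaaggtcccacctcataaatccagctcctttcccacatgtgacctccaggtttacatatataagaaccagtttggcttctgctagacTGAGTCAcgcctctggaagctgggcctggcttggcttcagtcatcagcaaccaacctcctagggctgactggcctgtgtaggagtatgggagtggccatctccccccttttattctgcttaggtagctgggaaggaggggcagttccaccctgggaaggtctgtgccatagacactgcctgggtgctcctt
Il33, downstream one of its starts, chr19:29945540-29945839, plus strand: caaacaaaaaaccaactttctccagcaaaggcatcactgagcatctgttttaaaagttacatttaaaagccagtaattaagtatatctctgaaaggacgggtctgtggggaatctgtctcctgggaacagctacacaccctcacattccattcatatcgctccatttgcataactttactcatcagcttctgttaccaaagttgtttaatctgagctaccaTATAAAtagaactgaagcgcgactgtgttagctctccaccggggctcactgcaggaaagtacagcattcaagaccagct
Of 32851 mouse promoters of this length, 13.6% hold TATAAA and 7.81% hold TGANTCA. The motif AGAACA, one arm of the glucocorticoid receptor's palindrome, is in 19% of promoters, and the NF-kappaB consensus in 8.46%. Of the 14 starts, AGAACA was found in 1 of Il1r1 at -131 and in that of Il18 at -74, and the NF-kappaB consensus in the same start of Il1r1 at -232, with neither in the 4 promoters shown. TATAAA was also found on the other strand of Il18 at -175, at the upstream start of Il33 at -203, and on the other strand of a further start of Il1rn at 14. All 9 genes matched the promoter table.

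In SDS alone, the genes differed in the day of their highest group mean. Il1b, Il1rl1, Il1r1 and Il1rap had it at day 3, Il1a, Il1rn, Il33 and Il18 at day 5 and Il1r2 at day 1. Il18 had its lowest group mean at day 3. With Topsym, the day 3 levels of Il1a, Il1b, Il1rn, Il1r1, Il1r2, Il1rap and Il1rl1 were below those of SDS alone in both libraries, and those of Il33 and Il18 were above. At day 1 against day 0 of SDS alone, 6 of the 9 genes were higher and 1 lower, beside 12.8% of all 19189 tested genes higher and 13.5% lower (limma, adjusted p under 0.05). At day 3 against day 0, 8 of the 9 genes were higher and 1 lower, beside 25.4% of all 19189 tested genes higher and 24.2% lower, and the median change of the 9 was 1.11 on the log2 scale, against -0.0054 for all tested genes. At day 5 against day 0, 5 of the 9 genes were higher and 3 lower, beside 30.7% of all 19189 tested genes higher and 35.8% lower. With no filter on low values 4 rather than 7 of the day 1 calls were made, and leaving out 1 library at a time gave 3 to 7.

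**Figure D1:**
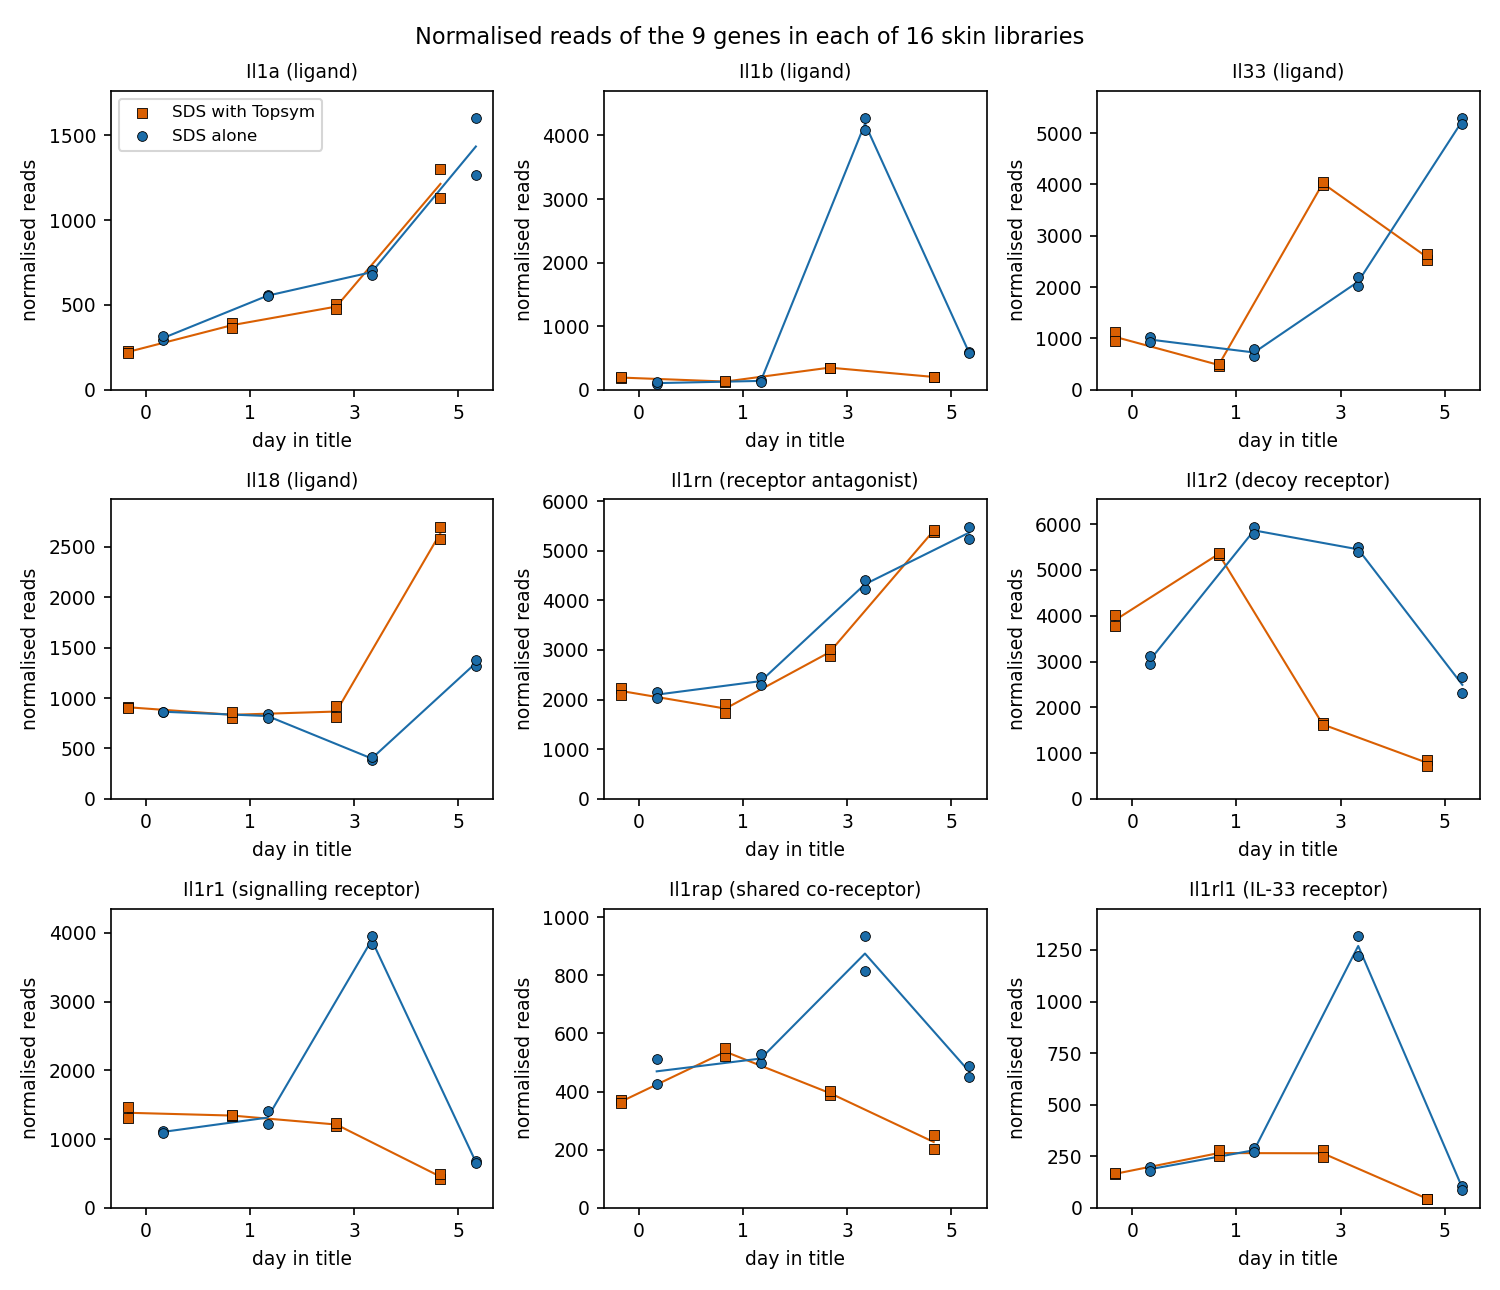
Normalised reads (y axis, linear, from 0) of each of the 9 genes by the day in the title (x axis); each square is a library of SDS with Topsym, each circle a library of SDS alone, and lines join the means of the 2 libraries. Il1b of SDS alone stands at 4089.8 and 4279 at day 3, above every other library, while Il33 with Topsym is above SDS alone at day 3 and below it at day 5.

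Il1a, the IL-1 alpha gene, climbed over the days in both arms. With Topsym its libraries held 228 and 219 at day 0, 397 and 366 at day 1, 506 and 475 at day 3 and 1299 and 1128 at day 5. With SDS alone they held 292 and 319.7 at day 0, 556 and 553 at day 1, 708 and 679 at day 3 and 1603 and 1264 at day 5. Within each arm no library of a later day overlapped one of an earlier day, and with Topsym the values were below those of SDS alone at days 0, 1 and 3, while at day 5 the arms overlapped. Day 5 against day 0 gave a log2 change of 2.43 (SE 0.11, adjusted p = 5.01e-12) with Topsym and a log2 change of 2.22 (SE 0.11, adjusted p = 2.38e-11) with SDS alone, and the 2 rises were not told apart by the test of their difference (0.22, SE 0.16, adjusted p = 0.308). Topsym against none gave -0.45 (adjusted p = 0.00652) at day 0, -0.54 (adjusted p = 0.00406) at day 1, -0.50 (adjusted p = 0.00136) at day 3 and -0.23 (adjusted p = 0.0941) at day 5. The lower level with Topsym was already there at day 0. The day 0 call was lost without SDS day 0 replicate 2 (adjusted p = 0.0655) or Topsym day 0 replicate 2 (0.0506), the day 1 call without Topsym day 1 replicate 2 (0.0607), and at day 5 a call was gained without SDS day 5 replicate 2 (0.00922) or Topsym day 5 replicate 1 (0.0465).

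Il1b, the IL-1 beta gene, had the widest range of the 9, 46.3-fold from its lowest to its highest library. With Topsym its libraries held 191 and 194 at day 0, 128 and 133 at day 1, 349 and 349 at day 3 and 206 and 199.7 at day 5. With SDS alone they held 92.5 and 119 at day 0, 159 and 122 at day 1, 4089.8 and 4279 at day 3 and 589 and 579.6 at day 5. The day 3 libraries of SDS alone stood far above all others, and at day 5 those of SDS alone were the next highest. Il1b rose 39.6-fold at day 3 against day 0 of SDS alone (log2 change 5.31, SE 0.14, adjusted p = 1.7e-14), and 1.81-fold with Topsym (log2 change 0.85, SE 0.14, adjusted p = 6.48e-05). Topsym against none gave a log2 change of -3.58 (SE 0.14, adjusted p = 5.13e-12) at day 3, 12-fold lower with Topsym, and a log2 change of -1.52 (SE 0.14, adjusted p = 2.47e-07) at day 5. At day 0 the sign was the other way: Il1b was 1.83-fold higher with Topsym (log2 change 0.87, SE 0.14, adjusted p = 0.000206), with no overlap of the libraries. At day 1 no difference was called (-0.095, SE 0.14, adjusted p = 0.811). The rise to day 3 differed between the arms by -4.45 on the log2 scale (SE 0.20, adjusted p = 3.49e-11), a difference that includes the gap at day 0. The small day 1 rise of SDS alone (log2 change 0.41, adjusted p = 0.0418) was lost with no filter on low values and without any one of 8 libraries, the lowest of these estimates, 0.21, being without SDS day 1 replicate 1.

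Neutrophil transcripts moved with Il1b at day 3, macrophage transcripts stood higher with Topsym at days 0 and 1 and lower at day 3, and the part of either in Il1b was not tested. The summed level of 12 neutrophil markers was 1260.1 and 1275 in the 2 libraries of day 3 with Topsym, against 34333 and 34692 in those of SDS alone. At day 0 it was 578 and 592 with Topsym and 457 and 591 with SDS alone. Though these sums overlapped, 6 of the 11 measured markers were higher with Topsym at day 0 and none lower. Their median was 1.00 on the log2 scale, and 10.8% of all tested genes were higher and 11.2% lower there. Ly6g, a defining neutrophil surface marker, was listed at 0 in every library but the 2 of day 3 of SDS alone (122 and 151). Of 11 measured neutrophil markers, 11 were higher at day 3 against day 0 of SDS alone, beside 25.4% of all tested genes. With Topsym against none at day 3 10 were lower and none was higher, beside 22.9% and 20.8% of all tested genes. The 12 monocyte and macrophage markers summed to 64132 and 64481 at day 0 with Topsym, against 29740 and 29865 with SDS alone, and 12 of 12 were higher with Topsym there. At day 1, where no difference in Il1b was called, they summed to 74038 and 73595 with Topsym, against 44396 and 42983.5 with SDS alone. There 9 of 12 were higher with Topsym and none lower. At day 3 they summed to 31347 and 31987 with Topsym, against 63539.9 and 64849 with SDS alone, and 12 of 12 were lower with Topsym. The shares of all tested genes were 10.8% higher at day 0, 5.51% higher and 4.29% lower at day 1, and 22.9% lower at day 3. Across the 16 libraries, the genes whose log2 levels followed Il1b most closely were Ngp, a neutrophil granule protein (Pearson r 0.976), Cd14, a co-receptor for bacterial lipopolysaccharide on myeloid cells (0.972), and Cd300lf, a myeloid surface receptor (0.970).

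**Figure D2:**
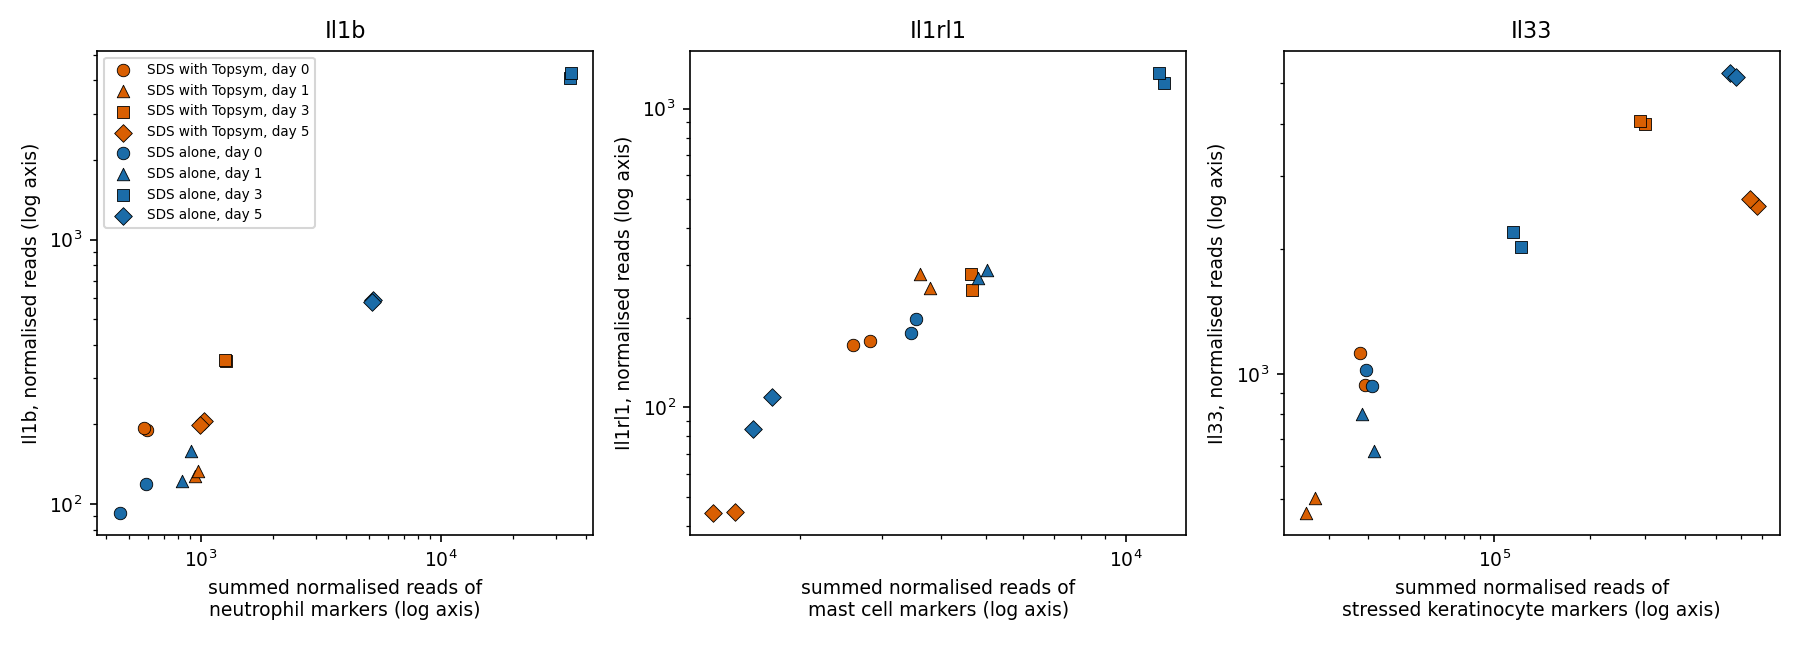
Normalised reads of Il1b, Il1rl1 and Il33 (y axes, log) against the summed normalised reads of neutrophil, mast cell and stressed keratinocyte markers (x axes, log), 1 point a library; orange is SDS with Topsym, blue SDS alone, and the shape gives the day. The day 3 libraries of SDS alone lie apart at the top right for Il1b and Il1rl1, and for Il33 the day 5 libraries with Topsym lie below those of SDS alone at a higher marker sum.

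Il33 encodes an alarm cytokine kept in the nucleus of keratinocytes and other barrier cells. Its libraries with Topsym held 1124 and 944 at day 0, 464 and 505 at day 1, 3988 and 4052 at day 3 and 2529 and 2639 at day 5. Those of SDS alone held 1023 and 935 at day 0, 652 and 802 at day 1, 2020.4 and 2194 at day 3 and 5298 and 5177 at day 5. Levels dipped at day 1 in both arms, then with Topsym they peaked at day 3, whereas with SDS alone they went on climbing to day 5, and the arms did not overlap at days 1, 3 or 5. Against day 0, day 1 gave a log2 change of -1.09 (SE 0.094, adjusted p = 9.43e-08) with Topsym and a log2 change of -0.43 (SE 0.094, adjusted p = 0.0024) with SDS alone. At day 3 the change was 1.96 (adjusted p = 2.59e-11) with Topsym and 1.11 (adjusted p = 4.55e-08) with SDS alone, and at day 5 it was 1.33 (adjusted p = 1.88e-09) and 2.42 (adjusted p = 1.06e-12) in the same order of arms. Topsym against none turned sign: a log2 change of 0.93 (SE 0.094, adjusted p = 4.6e-07) at day 3, which is 1.91-fold higher with Topsym, and a log2 change of -1.02 (SE 0.094, adjusted p = 2.64e-07) at day 5, which is 2.03-fold lower. At day 0 the arms overlapped (log2 change 0.074, adjusted p = 0.664). From day 3 to day 5 Il33 fell with Topsym (log2 change -0.64, adjusted p = 1.85e-05) and rose with SDS alone (log2 change 1.31, adjusted p = 2.66e-09). The fall at day 1 of SDS alone missed the threshold without SDS day 1 replicate 1 (adjusted p = 0.055).

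Keratins of stressed epidermis are given beside Il33, and their part in it was not tested. At day 1 against day 0, where Il33 fell in both arms, 3 of the 4 markers Krt6a, Krt6b, Krt16 and Krt17 were higher and 1 lower in each arm. Beside them, 20.3% of all tested genes were higher and 20.5% lower with Topsym, and 12.8% and 13.5% with SDS alone. Their sum fell with Topsym, from 37574 and 39144 at day 0 to 25477 and 27107 at day 1. With SDS alone it was 39479 and 41099 at day 0 and 41647 and 38124 at day 1, with overlap. At day 3 they summed to 288786 and 299097 with Topsym, against 114839 and 121540 with SDS alone. At day 5 the sums were 641882 and 675677 with Topsym and 555651 and 579536 with SDS alone. There 2 of the 4 were higher with Topsym and none lower, with a median of 0.18 on the log2 scale. In that comparison 22.6% of all tested genes were higher and 24.2% lower. The genes closest to Il33 across the 16 libraries were E2f8 (r 0.971) and E2f7 (0.964), cell cycle repressors of the E2F family, and Nab1 (0.970), a co-regulator of EGR factors.

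Il18 encodes IL-18, a cytokine that keratinocytes make as a precursor. Libraries with Topsym held 915 and 902 at day 0, 802 and 866 at day 1, 815 and 917 at day 3 and 2576 and 2699.9 at day 5. Those of SDS alone held 866 and 862 at day 0, 842 and 801 at day 1, 386 and 414 at day 3 and 1319 and 1376 at day 5. In SDS alone the day 3 libraries were the lowest of all 16 and in both arms the day 5 libraries were the highest, those with Topsym above those of SDS alone. Il18 fell at day 3 against day 0 of SDS alone (log2 change -1.11, SE 0.074, adjusted p = 2.24e-09), a 2.16-fold drop, while with Topsym the change was -0.071 (SE 0.074, adjusted p = 0.444). Topsym against none gave a log2 change of 1.11 (SE 0.074, adjusted p = 3.05e-09) at day 3 and a log2 change of 0.97 (SE 0.074, adjusted p = 3.18e-08) at day 5, and 0.072 (adjusted p = 0.579) and 0.021 (adjusted p = 0.939) at days 0 and 1. Among the 9 genes Il18 was the only one higher with Topsym at both day 3 and day 5. Basal keratinocyte markers, 6 genes with Krt5 and Krt14, summed at day 3 to 593824 and 603619 with Topsym, against 235938 and 240044 with SDS alone, and 5 of the 6 were higher with Topsym and 1, Krt15, lower. At day 5 the same 6 summed to 1287100 and 1225770 with Topsym, against 843330 and 893297 with SDS alone. There 2 of the 6 were higher with Topsym and 4 lower, with a median of -0.38 on the log2 scale. Among 5 suprabasal keratinocyte markers, 4 were higher and 1 lower with Topsym at day 3, and likewise at day 5. The shares of all tested genes were 20.8% higher and 22.9% lower at day 3, and 22.6% and 24.2% at day 5. The part of these cells in Il18 was not tested.

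Il1rn, the receptor antagonist gene, was among the more abundant of the family and varied least, 3.18-fold over all libraries. Libraries with Topsym held 2244 and 2103 at day 0, 1911 and 1727 at day 1, 2884 and 3025 at day 3 and 5387 and 5425 at day 5. Those with SDS alone held 2161 and 2039 at day 0, 2453 and 2292 at day 1, 4236 and 4415 at day 3 and 5485 and 5246 at day 5. The arms overlapped at days 0 and 5 and stood apart at days 1 and 3, with the Topsym libraries lower. Day 3 against day 0 gave a log2 change of 0.44 (SE 0.060, adjusted p = 8.29e-06) with Topsym and a log2 change of 1.04 (SE 0.060, adjusted p = 3.27e-10) with SDS alone, and day 5 against day 0 gave 1.32 (adjusted p = 5.67e-12) and 1.35 (adjusted p = 5.56e-12) in the same order of arms. Topsym against none was -0.38 (adjusted p = 0.000426) at day 1 and -0.55 (adjusted p = 1.12e-06) at day 3, but 0.011 (adjusted p = 0.908) at day 5. Day 1 against day 0 was -0.26 (adjusted p = 0.00241) with Topsym and 0.18 (adjusted p = 0.0395) with SDS alone, and the first call was lost without Topsym day 1 replicate 2 (adjusted p = 0.0573) and the second without SDS day 0 replicate 2 (0.243) or SDS day 1 replicate 1 (0.264), among others.

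Set per kilobase of exon, the antagonist did not keep pace with the ligands at day 3 of SDS alone. The ratio of Il1rn to the sum of Il1a and Il1b was 1.19 and 1.29 in the day 3 libraries with Topsym, against 0.31 and 0.31 with SDS alone. At day 0 it was 1.88 and 1.79 with Topsym and 1.99 and 1.64 with SDS alone. At day 5 it was 1.27 and 1.45 with Topsym and 0.88 and 1.00 with SDS alone. Only at day 3 of SDS alone, and in 1 library of day 5 of SDS alone, did ligand reads per kilobase exceed those of the antagonist. The lengths are all annotated exon bases, 5535 for Il1rn, 1974 for Il1a and 1907 for Il1b, not those of the transcripts expressed. Whether a ratio is over or under 1 depends on that choice. The ratio of Il1b to Il1a was 0.71 and 0.76 at day 3 with Topsym, against 5.98 and 6.52 with SDS alone, and was under 1 in the libraries of every other group. These ratios are given as values with no test.

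**Figure D3:**
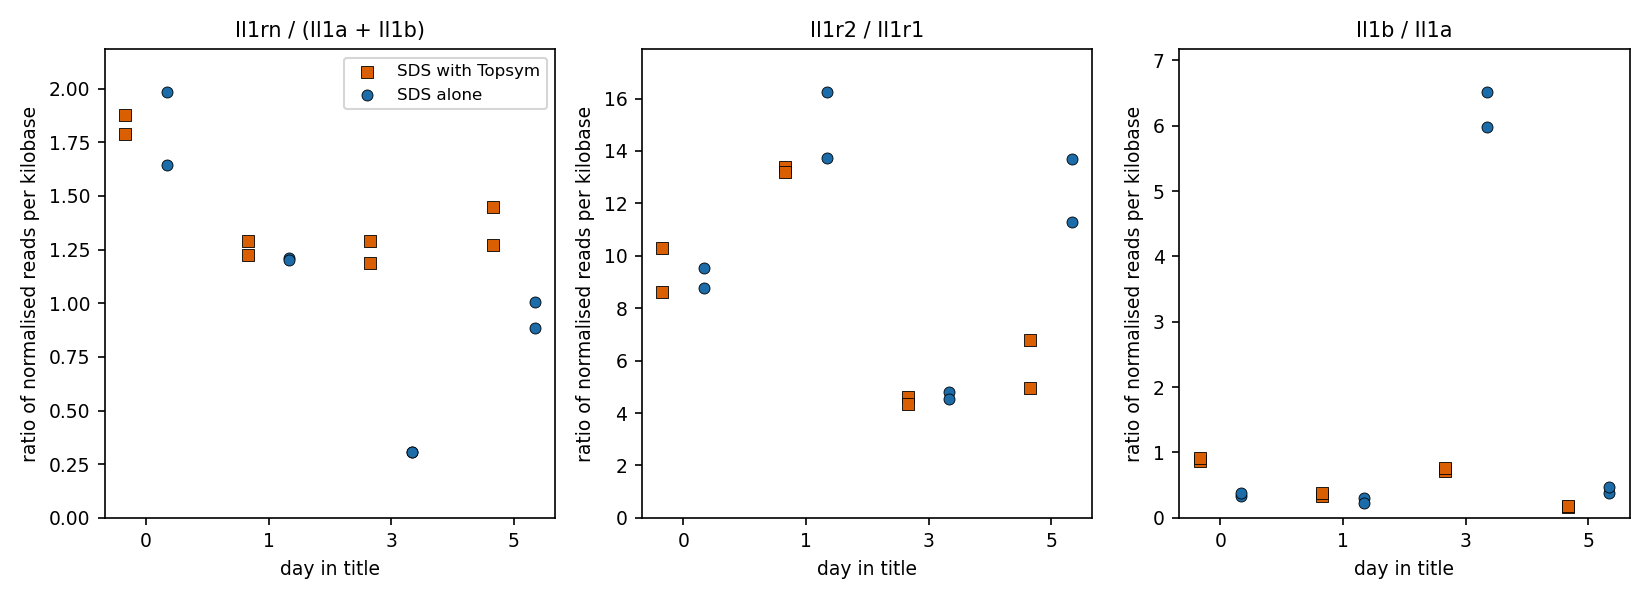
Ratios of normalised reads per kilobase of exon in each library (y axes, linear, from 0) by the day in the title (x axes); squares are SDS with Topsym, circles SDS alone. At day 3, Il1rn over Il1a plus Il1b is 1.19 and 1.29 with Topsym, against 0.31 and 0.31 with SDS alone, while Il1r2 over Il1r1 differs little between the arms.

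Il1r2, the decoy receptor gene, was the most abundant of the 9 per kilobase at days 0, 1 and 3 of SDS alone. With Topsym its libraries held 3778 and 4017 at day 0, 5337 and 5364 at day 1, 1646 and 1604 at day 3 and 855 and 722 at day 5. With SDS alone they held 2942 and 3121 at day 0, 5946 and 5784 at day 1, 5507 and 5395 at day 3 and 2313 and 2668 at day 5. The arms were closest at day 1 and stood far apart at days 3 and 5, with Topsym lower, while at day 0 the Topsym libraries were the higher. Day 1 against day 0 gave a log2 change of 0.46 (SE 0.075, adjusted p = 0.000106) with Topsym and a log2 change of 0.95 (SE 0.075, adjusted p = 6.56e-08) with SDS alone. At day 3 the directions against day 0 were opposite, -1.26 (adjusted p = 3.63e-10) with Topsym and 0.85 (adjusted p = 6.69e-08) with SDS alone. Topsym against none gave a log2 change of -1.75 (SE 0.075, adjusted p = 1.43e-11) at day 3, 3.35-fold lower with Topsym, a log2 change of -1.66 (SE 0.075, adjusted p = 5.39e-11) at day 5 and 0.36 (adjusted p = 0.00188) at day 0. The fall at day 5 of SDS alone (log2 change -0.29, adjusted p = 0.00298) was lost without SDS day 5 replicate 1 (adjusted p = 0.0631).

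Il1r1, the signalling receptor gene, peaked at day 3 of SDS alone. In the Topsym arm the values were 1465 and 1300.4 at day 0, 1329 and 1355 at day 1, 1195 and 1228 at day 3 and 419.5 and 487 at day 5. In SDS alone they were 1120.4 and 1089.9 at day 0, 1219.8 and 1405 at day 1, 3831 and 3958 at day 3 and 683 and 649 at day 5. Day 3 of SDS alone was well above every other library and day 5 of both arms below every other, with the Topsym libraries lowest. Il1r1 rose 3.52-fold at day 3 against day 0 of SDS alone (log2 change 1.82, SE 0.084, adjusted p = 1.97e-11), and with Topsym the change was -0.19 (SE 0.084, adjusted p = 0.0692), which count tests on recovered reads put past the threshold (0.0348 with edgeR and 0.0433 with DESeq2). Topsym against none at day 3 gave a log2 change of -1.68 (SE 0.084, adjusted p = 8.56e-11), 3.21-fold lower with Topsym, and a log2 change of -0.56 (SE 0.084, adjusted p = 4.67e-05) at day 5. At day 0 it was 0.32 (adjusted p = 0.0106), a call lost without SDS day 0 replicate 2 (adjusted p = 0.0676) or Topsym day 0 replicate 1 (0.132). The day 1 rise of SDS alone (log2 change 0.24, adjusted p = 0.0411) was lost with no filter on low values and without any one of 9 libraries, the lowest of these estimates, 0.14, being without SDS day 1 replicate 2. Summed fibroblast markers at day 3 were 28167 and 28468 with Topsym, against 93899 and 95021 with SDS alone. Endothelial markers summed to 3795 and 3799, against 9296 and 9468. All 6 of each list were lower with Topsym, beside 22.9% of all tested genes, while 5 of 6 basal keratinocyte markers were higher. At day 0 of SDS alone fibroblast markers summed to 289910 and 298533, above their day 3 sums, and endothelial markers to 3052 and 3143, below theirs. At day 3 against day 0 of SDS alone, 5 of 6 fibroblast markers were lower and 1 higher, and 6 of 6 endothelial markers were higher. Of all tested genes 24.2% were lower and 25.4% higher there. The part of these cells in Il1r1 was not tested.

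Decoy and signalling receptor were both lower with Topsym at day 3. The per-kilobase ratio of Il1r2 to Il1r1 was 4.59 and 4.36 with Topsym at day 3, against 4.79 and 4.55 with SDS alone. At day 5 it was 6.80 and 4.94 with Topsym, against 11.3 and 13.7 with SDS alone, so the decoy was lower relative to the receptor with Topsym there. Day 1 had the highest ratios of SDS alone, 16.3 and 13.7, and with Topsym the day 1 ratios were 13.4 and 13.2.

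Il1rap, the co-receptor gene that the IL-1 and IL-33 receptors share, was low per kilobase throughout. With Topsym its libraries held 369.9 and 362 at day 0, 523 and 551 at day 1, 388 and 402 at day 3 and 204 and 249 at day 5. With SDS alone they held 513 and 426 at day 0, 498 and 529 at day 1, 813 and 936 at day 3 and 451 and 488 at day 5. Only the day 3 libraries of SDS alone stood above the rest, and the day 5 libraries with Topsym stood below. Day 3 against day 0 gave 0.11 (adjusted p = 0.454) with Topsym and a log2 change of 0.90 (SE 0.12, adjusted p = 7.6e-06) with SDS alone. At day 3 Topsym against none gave a log2 change of -1.14 (SE 0.12, adjusted p = 6.08e-07) and a log2 change of -1.05 (SE 0.12, adjusted p = 2.17e-06) at day 5. The small gap at day 0 (log2 change -0.35, adjusted p = 0.0422) was lost with no filter (0.0642) and without any one of 9 libraries, the estimate falling to -0.22 without SDS day 0 replicate 1.

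Il1rl1, the IL-33 receptor gene, had the second widest range of the 9, 29.7-fold. With Topsym its libraries held 162 and 167 at day 0, 251 and 279.9 at day 1, 281 and 248 at day 3 and 44.4 and 44.7 at day 5. With SDS alone they held 197 and 177 at day 0, 288 and 270.3 at day 1, 1219.5 and 1319 at day 3 and 108 and 85.0 at day 5. The day 3 libraries of SDS alone were more than 4 times any other library, and the day 5 libraries of each arm were the lowest of that arm. Il1rl1 rose 6.75-fold at day 3 against day 0 of SDS alone (log2 change 2.76, SE 0.15, adjusted p = 1.97e-10) and 1.60-fold with Topsym (log2 change 0.68, SE 0.15, adjusted p = 0.00111). Topsym against none gave a log2 change of -2.26 (SE 0.15, adjusted p = 3.23e-09) at day 3, 4.79-fold lower with Topsym, and a log2 change of -1.09 (SE 0.15, adjusted p = 2.21e-05) at day 5. The Topsym day 5 values rest on 22 and 28 reads. Ligand and receptor of this pair moved apart: with Topsym at day 3 Il33 was higher and Il1rl1 lower than with SDS alone, and the per-kilobase ratio of Il33 to Il1rl1 was 33.9 and 39.0 with Topsym, against 3.96 and 3.97 with SDS alone. The day 1 rise of SDS alone (log2 change 0.58, adjusted p = 0.00958) was lost without SDS day 0 replicate 2 (adjusted p = 0.0831) or SDS day 1 replicate 1 (0.0705).

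Mast cells are known to carry the IL-33 receptor, and 10 of their markers are given here with its values. Their part in it was not tested. Their summed level was 4646 and 4677 at day 3 with Topsym, against 11791 and 12066 with SDS alone. Cpa3, a mast cell protease gene named after its value was seen, stood at 1168 and 1127 with Topsym and 1133 and 1295 with SDS alone at day 3 (log2 change -0.078, adjusted p = 0.696). Hdc, the histamine-forming enzyme gene, which neutrophils and other myeloid cells also express, stood at 683 and 718 with Topsym and 6433 and 6114 with SDS alone (log2 change -3.16, adjusted p = 4.99e-10). Of the 10, 4 were lower and none higher with Topsym at day 3, beside 22.9% and 20.8% of all tested genes. The 4 were Cma1, Mcpt4, Tpsb2 and Hdc. The genes closest to Il1rl1 over the 16 libraries were Csf2rb2 (r 0.986) and Csf2rb (0.983), which encode signalling chains of receptors for GM-CSF, IL-3 and IL-5, and Arnt (0.983), a partner of hypoxia-inducible factors, which was also the closest gene to Il1r1 (0.983). Among the 9 genes themselves, Il1rl1 and Il1r1 were the most alike (r 0.972) and Il18 and Il1rl1 the most opposed (r -0.968). The points of these coefficients share groups, libraries and scaling.

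Taking Topsym against none day by day, at day 0 3 of the 9 genes were higher and 2 lower, beside 10.8% of all 19189 tested genes higher and 11.2% lower. At day 1, 0 of the 9 genes were higher and 3 lower, beside 5.51% of all 19189 tested genes higher and 4.29% lower. At day 3, 2 of the 9 genes were higher and 7 lower, beside 20.8% of all 19189 tested genes higher and 22.9% lower, with a median of -1.14 over the 9 and -0.040 over all tested genes. At day 5, 1 of the 9 genes was higher and 6 lower, beside 22.6% of all 19189 tested genes higher and 24.2% lower, with medians of -1.02 and -0.0094. The 2 genes higher at day 3 were Il33 and Il18, and the 1 higher at day 5 was Il18. Of 12 known glucocorticoid target genes, 3 were higher and 3 lower with Topsym at day 0, 4 were higher with Topsym at day 1, and 11 were lower and 1 higher at day 3. Leaving out 1 library gave 3 to 5 calls at day 0, 2 to 3 at day 1, 9 at day 3 and 7 to 8 at day 5.

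**Figure D4:**
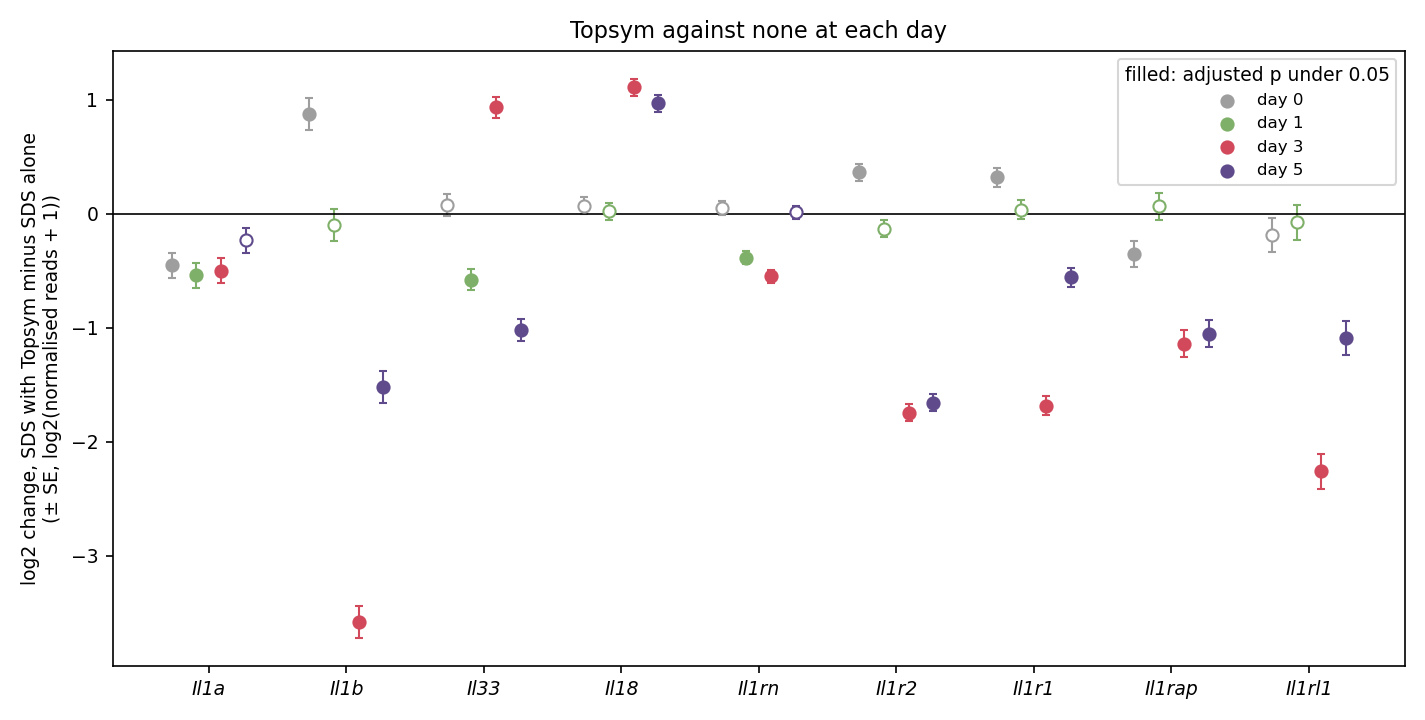
Log2 change of each gene between SDS with Topsym and SDS alone (y axis, difference of log2(normalised reads + 1), ± SE of limma) at days 0, 1, 3 and 5; filled points passed an adjusted p of 0.05. Il1b at day 3 is lowest, at -3.58, Il33 is above 0 at day 3 and below it at day 5, and Il18 is above 0 at both.

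Within the Topsym arm, at day 1 against day 0, 4 of the 9 genes were higher and 3 lower, beside 20.3% of all 19189 tested genes higher and 20.5% lower. At day 3 against day 0, 5 of the 9 genes were higher and 1 lower, beside 27.0% of all 19189 tested genes higher and 28.2% lower. At day 5 against day 0, 4 of the 9 genes were higher and 4 lower, beside 32.8% of all 19189 tested genes higher and 37.5% lower. From day 3 to day 5 the Topsym arm had Il1a, Il1rn and Il18 higher and the other 6 lower, beside 27.1% of tested genes higher and 35.1% lower. Over the same step SDS alone had Il1a, Il1rn, Il33 and Il18 higher and the other 5 lower, beside 28.9% higher and 34.5% lower. In SDS alone that step took Il1b down 7.15-fold, Il1r1 5.84-fold and Il1rl1 13.1-fold. Summed fibroblast markers (Col1a1, Dcn and others) were also lower, at 14108 and 14318 in the day 5 libraries of SDS alone, against 93899 and 95021 in those of day 3. Summed endothelial markers were 1027 and 1159 at day 5 and 9296 and 9468 at day 3 of SDS alone. Summed neutrophil markers were 5149.9 and 5218 at day 5 and 34333 and 34692 at day 3. Macrophage markers were 12547 and 12594 at day 5 and 63539.9 and 64849 at day 3, and mast cell markers 1582 and 1734 at day 5 and 11791 and 12066 at day 3. All 5 marker sums were lower at day 5 than at day 3 of SDS alone, and their part in the falls of these genes was not tested.

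The change from day 0 was then compared between the arms, as the change with Topsym minus the change with SDS alone. For day 1, 0 of the 9 genes were higher and 4 lower, beside 9.18% of all 19189 tested genes higher and 8.06% lower. For day 3, 2 of the 9 genes were higher and 6 lower, beside 19.5% of all 19189 tested genes higher and 19.5% lower. For day 5, 1 of the 9 genes was higher and 6 lower, beside 17.3% of all 19189 tested genes higher and 17.7% lower. Since these contrasts use the day 0 libraries of both arms, at which 5 of the 9 genes already differed, part of each value is the day 0 gap. Il1a was the only gene of the 9 called at none of the 3 days.

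Per kilobase of exon, the order of the 9 genes changed with day and arm. At day 0 with SDS alone it ran Il1r2 (1589 ± 66.5 reads per kilobase), Il18 (838 ± 2.46), Il1rn (379 ± 15.6), Il33 (339 ± 21.4), Il1r1 (174 ± 3.40), Il1a (155 ± 9.78), Il1b (55.3 ± 9.68), Il1rap (41.3 ± 5.37) and Il1rl1 (27.2 ± 2.07), with no neighbours overlapping. At day 3 with Topsym Il33 was first (1393 ± 15.5), Il1r2 (852 ± 15.7) and Il18 (840.1 ± 69.7) followed with overlapping libraries, and Il1b was the seventh (183 ± 0.18). At day 3 with SDS alone Il1r2 was first (2857 ± 41.3) and Il1b the second (2194 ± 70.0). At day 5 with Topsym Il18 was first (2558 ± 85.3), and with SDS alone Il33 was first (1815 ± 29.7). The only other neighbours that overlapped were Il18 with Il1r2 at day 5 of SDS alone and Il1rn with Il33 at day 0 with Topsym. Il1rl1 or Il1rap was last in every group.

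Other genes of the pathway were read as lists chosen by function, with earlier results of these data known. The remaining ligands and inhibitors of the family are the IL-36 cytokines of keratinocytes, named in the table by older symbols (Il1f6, Il1f8 and Il1f9 for IL-36 alpha, beta and gamma), the IL-36 receptor antagonist Il1f5, Il1f10 and the IL-18 binding protein gene Il18bp. At day 5 against day 0 of SDS alone 4 of 6 were higher and 1 lower, beside 30.7% and 35.8% of all tested genes. Il1f6 stood at 4484 and 4529 at day 5 of SDS alone, against 250.2 and 230.0 at day 0 (log2 change 4.23, adjusted p = 2.26e-15), with no overlap. Il1f5 stood at 15482 and 15797 at day 5, against 2594 and 2403 at day 0 (log2 change 2.65, adjusted p = 1.19e-16). With Topsym against none at day 3, 4 were higher and 2 lower, beside 20.8% and 22.9% of all tested genes. Il1f8 held 878 and 776 with Topsym and 357 and 429.6 with SDS alone (log2 change 1.07, adjusted p = 2.99e-07), and Il1f5 4861 and 5144 with Topsym and 2571 and 2669 with SDS alone (log2 change 0.93, adjusted p = 2.59e-10). The 4 higher were the 3 IL-36 ligands and their antagonist, as Il33 and Il18 were higher and Il1b lower in the same comparison, and the 2 lower were Il18bp and Il1f10, the second named after its value was seen.

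Of 6 other receptor genes 4 were measured, Il1rl2 (the IL-36 receptor), Il18r1 and Il18rap (the IL-18 receptor pair) and Sigirr, an inhibitory receptor. Il18rap held 90.1 and 77.8 at day 3 with Topsym, against 1194 and 1315 with SDS alone (log2 change -3.89, adjusted p = 2.1e-09), and at day 0 of SDS alone it held 56.4 and 44.1. It stood high at day 3 of SDS alone in the same 2 libraries in which Il18 was lowest. Il1rl2 held 3512 and 3546 with Topsym at day 3, against 2439 and 2460.0 with SDS alone (log2 change 0.53, adjusted p = 1.76e-07). At day 5 3 of the 4 were lower with Topsym than with none and none was higher, beside 24.2% and 22.6% of all tested genes. Il18rap was lower by the most (log2 change -3.13, adjusted p = 5.62e-08).

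The signalling chain from the receptor to NF-kappaB was read in 17 genes. At day 3 against day 0 of SDS alone 10 were higher and none lower, beside 25.4% and 24.2% of all tested genes. Their median was 0.24 on the log2 scale, beside -0.0054 for all tested genes. Irak3, a kinase-like brake on the chain, held 3283 and 3391 at day 3 of SDS alone, against 733 and 706 at day 0 (log2 change 2.21, adjusted p = 4.12e-14), and Irak2, a kinase of the chain, held 1657 and 1761 at day 3, against 418 and 482 at day 0 (log2 change 1.93, adjusted p = 1.03e-10). Myd88, the adaptor, rose by 1.36. With Topsym against none at day 3 4 were higher and 9 lower, beside 20.8% and 22.9% of all tested genes. Irak2 (log2 change -1.72, adjusted p = 6.11e-10) and Irak3 (log2 change -1.42, adjusted p = 2.02e-11) were lower by the most.

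Genes of the inflammasome, the complex that activates caspase-1, and of other precursor processing numbered 15 measured of 16. Nlrp3, the sensor of the best known inflammasome, held 165 and 161 at day 3 with Topsym, against 2482 and 2312 with SDS alone (log2 change -3.87, adjusted p = 5.91e-10). Against day 0 of SDS alone, where it held 36.1 and 36.9, it rose at day 3 by 6.0 on the log2 scale. Pycard, the adaptor ASC, and Casp1 itself did not follow it: at day 3 against day 0 of SDS alone Pycard fell (log2 change -0.85, adjusted p = 3.94e-08) and so did Casp1 (log2 change -0.67, adjusted p = 0.00391), Casp1 being named after its value was seen. In all 8 of the 15 were higher and 3 lower there, beside 25.4% and 24.2% of all tested genes. With Topsym against none at day 3 2 were higher and 6 lower, beside 20.8% and 22.9% of all tested genes. Gsdmd, the pore protein gene, held 286 and 313 with Topsym and 788 and 809 with SDS alone (log2 change -1.41, adjusted p = 1.82e-07).

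Genes known to be induced by IL-1 signalling, 20 measured of 21, were all higher at day 3 against day 0 of SDS alone, beside 25.4% of all tested genes. Their median was 2.77, beside -0.0054 for all tested genes. Cxcl2, a neutrophil attractant, held 337 and 371 at day 3 with Topsym, against 9100.4 and 9093 with SDS alone (log2 change -4.68, adjusted p = 3.42e-09). Cxcl5, another, held 21.3 and 12.1 with Topsym and 1895 and 1720.4 with SDS alone, and its 0 reads at day 0 of SDS alone make the day 3 level at least 1442-fold higher, with 3 reads over the group as the floor. Saa3, an acute phase protein gene, held 1364 and 1486 with Topsym and 40902 and 38580 with SDS alone (log2 change -4.80, adjusted p = 1.51e-09). With Topsym against none at day 3 16 of 20 were lower and 2 higher, beside 22.9% and 20.8% of all tested genes. At day 5 10 were lower and 2 higher, beside 24.2% and 22.6% of all tested genes. The 2 higher at day 3, named after their values were seen, were Ccl20, an attractant of CCR6-bearing cells (log2 change 1.08, adjusted p = 6.12e-06), and Ptgs2, the inducible prostaglandin enzyme gene, which held 1882 and 1827 with Topsym and 652 and 733 with SDS alone (log2 change 1.42, adjusted p = 8.89e-06). Many other signals induce these genes, and their share owed to IL-1 was not tested.

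The genes most like the remaining members over the 16 libraries, among 11788 with a mean of at least 100, were Zswim4, Rgp1 and Ndst1 for Il1a (r 0.977, 0.975 and 0.969), Asl, Chil1 and Mcat for Il1rn (0.963, 0.963 and 0.962) and Pik3ip1, Lama5 and Sirt2 for Il1r2 (0.973, 0.969 and 0.966). Il1rap was closest to Zbtb38, Depp1 and Dyrk1a (r 0.973, 0.955 and 0.954), Il1r1 after Arnt to Uap1 and Pxn (0.982 and 0.981), and Il18 to Ppfia3, Tbc1d10a and Csnk2a2 (0.980, 0.979 and 0.979).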

How the data were processed

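Whole skin of mice was measured by RNA sequencing in 16 libraries, 8 groups of 2 by the day and Topsym in the titles. The deposited values are a signal: reads per gene divided by the library's size factor. Per the submitters' processing notes the authors used Trim Galore 0.6.7, HISAT2 2.2.1 with mm10, featureCounts 2.0.3 and DESeq2 2.11.40.8. The annotation and strand setting are not given in the sources used here. All values were whole multiples of 1 read within 1e-04, so whole reads were recovered for the count tests.

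Values were tested as log2(value + 1) with limma 3.58.1 in R 4.3.3 (two-sided, trend, 1 mean per group), over the 19189 of 32078 genes that reached 10 in 2 or more libraries, with Benjamini-Hochberg adjustment over all of them and a threshold of 0.05. Fold changes are on that scale. Scripts were tested on simulated data. Each comparison was repeated with pseudocount 4, with all genes kept, with TMM scaling (edgeR 4.0.16), with the replicate number as a block, with each library or the day 5 libraries left out, and as a count test of the recovered reads in edgeR and in DESeq2 1.42.0. From a pathway list the text names at most 4 genes a comparison, those that changed most past the threshold and whose higher group averaged 100 or more. The genes most like a member are the 3 with the highest Pearson r. The members and lists were chosen with earlier results of these data known. Lengths are exon bases of GENCODE M21, with all annotated exons of a gene merged, so levels per kilobase set between genes depend on that choice.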

Additional observations from a re-analysis of the deposited data

Results flagged for a closer look

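The change from day 0 differed between SDS with Topsym and SDS alone, by limma's test of that difference, in 19 results of 8 genes. Each value is the log2 change with Topsym minus that with SDS alone, and each includes any gap between the arms at day 0. To day 1 the differences were -0.97 for Il1b, -0.43 for Il1rn, -0.49 for Il1r2 and -0.65 for Il33. To day 3 they were -4.45 for Il1b, -2.11 for Il1r2, -2.07 for Il1rl1, -2.0 for Il1r1, -0.79 for Il1rap and -0.60 for Il1rn. Il33 and Il18 had the opposite sign to day 3, at 0.86 and 1.04. To day 5 the differences were -2.40 for Il1b, -2.02 for Il1r2, -1.09 for Il33, -0.90 for Il1rl1, -0.88 for Il1r1 and -0.70 for Il1rap, with 0.90 for Il18. Il33 was the 1 gene of these 8 whose sign was not the same at each day it was called.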

How the results depend on the processing

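No called result of the 9 genes changed sign under any alternative run, while 12 results that were not called crossed 0, with log2 changes between -0.288 and 0.2. Of 135 results, each 1 of the 9 genes in 1 of 15 comparisons, 121 kept their side of the threshold under every alternative that could be run. The pseudocount of 4 and TMM scaling changed none of them. TMM moved the median of all genes by at most 0.0504 in size (log2). The calls for day 1 against day 0 of SDS alone were the least stable: 7 genes were called, 4 with no filter, 3 to 7 with 1 library left out and 6 with the replicate number as a block, where Il1b was lost at an adjusted p of 0.0523. That was the only call of the 9 genes that the block changed. The numbers do not pair the libraries, since deviations of same-numbered libraries correlated at -0.0313 to 0.0298 over 28 pairs of groups. For Topsym against none at day 0, 5 genes were called and 3 to 5 with 1 library left out. For Topsym against none at day 1, 1881 of all tested genes were called, 2835 without the day 5 libraries and 919 to 2231 with 1 library left out. edgeR and DESeq2 on recovered reads each differed from limma in 1 of the 135 calls. The cause of these shifts was not tested. Depth limits Il1rl1 most, with 22 reads in its lowest library, and 2 libraries a group leave each spread to be estimated over all 8 groups.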

Other observations

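Known targets of the glucocorticoid receptor, 12 genes, were read as a list because Topsym is a glucocorticoid preparation. With Topsym against none at day 0, 3 were higher and 3 lower, beside 10.8% and 11.2% of all tested genes. Dusp1, a phosphatase that dampens inflammatory kinases, held 10309.9 and 9317 at day 0 with Topsym, against 3682 and 3576 with SDS alone (log2 change 1.43, adjusted p = 2.01e-11). At day 1, 4 were higher and none lower, beside 5.51% and 4.29% of all tested genes. Dusp1 then held 5671 and 5785 with Topsym and 3160.2 and 3113 with SDS alone (log2 change 0.87, adjusted p = 5.27e-08), a smaller gap than at day 0. At day 3, 11 were lower with Topsym and 1 higher, beside 22.9% and 20.8% of all tested genes. The median was -1.02 on the log2 scale, beside -0.040 for all tested genes. Mt1, a metallothionein, held 9531 and 9294 at day 3 with Topsym, against 30824 and 30149 with SDS alone (log2 change -1.70, adjusted p = 8.04e-14), and Pdk4, a kinase that restrains glucose oxidation, held 13262 and 13209 with Topsym and 41192 and 42555 with SDS alone (log2 change -1.66, adjusted p = 1.96e-09). The groups did not overlap in either gene. Fkbp5 and Tsc22d3, classical targets named after their values were seen, were lower as well (log2 change -0.60, adjusted p = 5.04e-09 and log2 change -0.78, adjusted p = 3.15e-09). At day 5, 6 were lower and 4 higher, beside 24.2% and 22.6% of all tested genes. In SDS alone, 12 of the 12 were higher at day 3 against day 0, beside 25.4% of all tested genes.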
